A study of Mus musculus with 15 samples.

Results

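Amino acid transporters of the plasma membrane were examined in cultured mouse pre-B cells: 10 genes chosen by symbol (Slc7a5, Slc7a6, Slc7a11, Slc3a2, Slc7a1, Slc1a4, Slc1a5, Slc38a1, Slc38a2 and Slc6a9) out of 55335 gene identifiers counted by RNA sequencing. The rule used gene names and no threshold on values. The 3 RNA libraries titled MSL2KO came from pre-B cells with a knockout of Msl2 on top of a Slp65 knockout, and were set against 3 libraries titled MSL2WT, from Slp65 knockout pre-B cells with wild-type Msl2. Per the labels, bone marrow cells of SLP65KO were grown up as a single clone, and electroporation with a guide RNA against Msl2 gave the knockout line. The cells grew in medium with interleukin 7 and glutamine and received no treatment. MSL2 is a ubiquitin ligase that belongs to the MSL complex, whose acetyltransferase MOF modifies histone H4, and SLP65, encoded by Blnk, is an adaptor of the pre-B cell receptor. The comparison asked which RNAs differ between Msl2 knockout and wild-type pre-B cells. The labels describe 1 clone and 1 knockout line, and no label says that replicates were separate cultures, so p-values reflect the spread among 3 libraries of a line, and that spread may be technical.

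The genotype tags of all 6 RNA libraries state the reverse of their titles. Groups follow the titles here, and every direction depends on them. The RNA of the targeted gene did not settle this: Msl2 was at 105, 103 and 121 CPM in MSL2KO replicates 1, 2 and 3, against 97.1, 99.3 and 92.3 CPM in MSL2WT replicates 1, 2 and 3 (CPM, read counts normalised to library size with TMM factors). These groups did not overlap, as in 20.9% of all tested genes, and edgeR's quasi-likelihood test gave an adjusted p of 0.302. Reads summed along a gene are no check of a small edit that leaves its transcript in place, and Blnk, disrupted in both groups, had reads in all 6 libraries (112 ± 4.1 CPM in MSL2KO and 98.3 ± 19 CPM in MSL2WT, SD, n = 3 each). Libraries held between 14092278 and 20803227 reads, so that 3 reads in a library correspond to between 0.141 and 0.212 CPM. The libraries numbered 2 stood apart for some genes: the serine synthesis gene Psat1 was at 17.2, 72.9 and 18.9 CPM in MSL2KO replicates 1, 2 and 3, and the B cell kinase gene Blk at 36.1, 163 and 44.5 CPM in MSL2WT replicates 1, 2 and 3. The 12 B lineage markers examined were all tested and summed to between 3501 and 3551 CPM in MSL2KO libraries, against 3226 to 3577 CPM in MSL2WT libraries. Cd24a had the most reads among them. A sum does not show single markers, whose log2 fold changes of MSL2KO over MSL2WT ran from -0.18 to 1.49. Of the 12, edgeR called 0 at an adjusted p under 0.05 (4.59% of all tested genes) and limma-voom 1 (4.74%). In 4 of the 12 the groups did not overlap, beside 20.9% of all tested genes.

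Amino acids cross the plasma membrane through carriers that exchange, accumulate or passively equilibrate them. SLC3A2 (4F2hc, CD98) is a heavy chain that brings several light chains of the SLC7 family to the cell surface, among them SLC7A5 (LAT1), which imports leucine and other large neutral amino acids in exchange for internal ones such as glutamine. SLC38A1 and SLC38A2 accumulate small neutral amino acids with sodium, SLC1A4 and SLC1A5 exchange neutral amino acids, and SLC7A1 carries arginine and lysine. Dividing lymphocytes depend on such uptake for protein and nucleotide synthesis, and in mice B cells need Slc3a2 to proliferate. Several of these genes are known targets of ATF4, the transcription factor of the amino acid response.

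The promoters of Slc7a11, Slc1a4 and Slc3a2 are shown because Slc7a11 was the member with almost no reads, while Slc1a4 and Slc3a2 were both highest in replicate 1 of each group. They are RefSeq windows of GRCm38.p6 (mm10) from 250 bases before to 50 bases after an annotated start, on the minus strand, at chr3:50443564-50443863, chr11:20332664-20332963 and chr19:8713848-8714147. Capitals mark matches, on either strand, to TGATGNAA, a short form of the amino acid response element that ATF4 binds.
Slc7a11: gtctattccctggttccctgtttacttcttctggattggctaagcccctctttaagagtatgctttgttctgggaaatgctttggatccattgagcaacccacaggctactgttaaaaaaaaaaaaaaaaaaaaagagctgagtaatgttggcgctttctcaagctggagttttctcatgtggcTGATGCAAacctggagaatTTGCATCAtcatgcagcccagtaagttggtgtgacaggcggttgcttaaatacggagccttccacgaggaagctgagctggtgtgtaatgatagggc
Slc1a4: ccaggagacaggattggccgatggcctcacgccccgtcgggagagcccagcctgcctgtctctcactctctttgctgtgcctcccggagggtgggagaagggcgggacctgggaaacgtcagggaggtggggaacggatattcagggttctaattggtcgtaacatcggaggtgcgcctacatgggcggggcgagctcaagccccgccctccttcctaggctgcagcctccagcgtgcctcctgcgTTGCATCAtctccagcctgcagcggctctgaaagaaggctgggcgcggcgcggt
Slc3a2: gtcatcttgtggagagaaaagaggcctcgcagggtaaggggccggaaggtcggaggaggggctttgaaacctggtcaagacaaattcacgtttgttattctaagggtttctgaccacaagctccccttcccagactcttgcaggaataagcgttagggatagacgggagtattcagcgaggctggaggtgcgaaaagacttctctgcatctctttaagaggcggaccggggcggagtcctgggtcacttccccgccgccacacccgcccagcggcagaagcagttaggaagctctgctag
The Slc7a11 window held 2 matches facing each other, with first bases 66 and 47 bases before the start (positions -66 and -47), and the Slc1a4 window held 1 match at position -4. The Slc3a2 window held no match to this form, which was chosen after the values were seen. The Slc7a11 and Slc3a2 windows lie inside their gene spans, which extend to 50499087 and 8723369. No window covered that outer end of either gene, so a match there would be missed. The form was found in 2 of the 11 windows of the chosen genes, beside 3.97% of all 32851 windows of the same length. RefSeq windows were found for 7 of the 10 genes, 11 windows in all, some genes having several starts. Slc7a5, Slc1a5 and Slc38a1 had no entry. Of the other motifs searched, also on both strands, 0 of the 11 windows held the longer form TGATGNAAT (0.965% of all windows), the E-box CACGTG of MYC (7.15%) or the YY1 core AANATGGC (6.05%). The antioxidant response form TGACNNNGC was found in 6 of the 11 windows (12.4% of all windows), which belong to Slc6a9, Slc7a1, Slc7a6 and Slc38a2, and the match of the overlapping Slc7a6 windows is the same site. A match describes letters only.

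No RNA of the 10 chosen transporter genes passed the test for a difference between the groups. Of the 10 genes, 9 passed the filter on low counts, and edgeR's quasi-likelihood test called 0 of these 9 at a Benjamini-Hochberg adjusted p under 0.05, against 4.59% of all 13077 tested genes (1.80% higher and 2.79% lower). At an unadjusted p under 0.05 the count was also 0 of 9, against 15.4% of tested genes. DESeq2 called 0 (6.07% of tested genes) and limma-voom 0 (4.74%). In 0 of the 9 genes did the MSL2KO libraries all lie on 1 side of the MSL2WT libraries, beside 20.9% of tested genes. In a set of 9 genes a count of 0 is near each of these shares, so these counts do not set the members apart. Log2 fold changes of MSL2KO over MSL2WT ran from -0.41 to 0.07 with a median of -0.07, beside a median of 0.00 over all tested genes, and 8 of the 9 were negative, beside 49.0% of tested genes. The median was -0.01 without MSL2KO replicate 1, -0.03 without MSL2WT replicate 1 and -0.19 without MSL2WT replicate 3. Summed over the 10 genes, the level was 1470, 1563 and 1640 CPM in MSL2KO replicates 1, 2 and 3, against 1719, 1641 and 1490 CPM in MSL2WT replicates 1, 2 and 3, so the groups overlapped. In these bulk RNA samples, fewer cells with a transcript and less of it per cell cannot be told apart. A p above the threshold does not show that levels were equal, and the 95% intervals given with each gene, which are not adjusted for the number of genes, bound the difference.

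**Figure D1:**
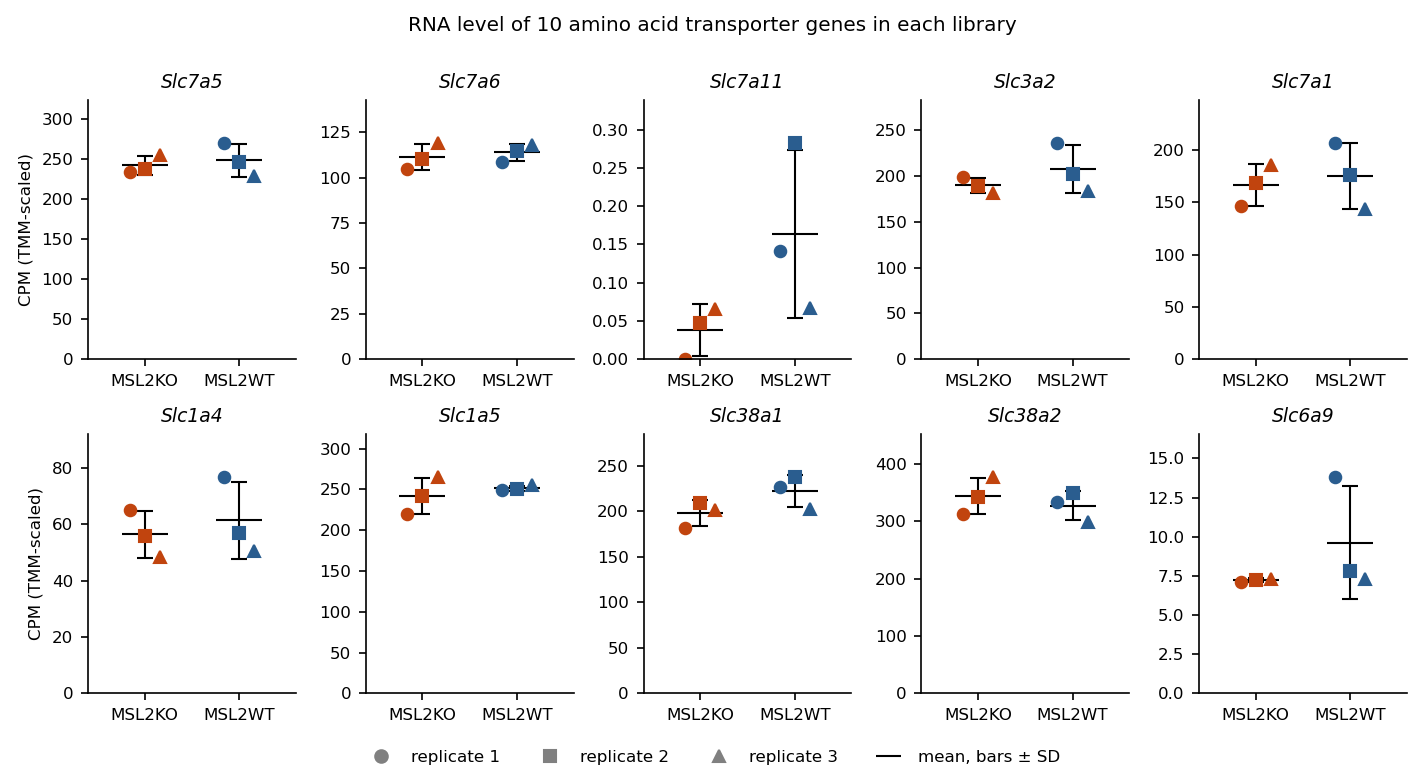
RNA level (CPM, TMM-scaled, linear axis from 0) of the 10 transporter genes in each of 3 MSL2KO and 3 MSL2WT libraries, with a marker shape for each replicate number and bars for mean ± SD. The groups overlap in the 9 genes tested, and for Slc7a11, at or below 0.282 CPM in every library, a single read is visible as a step.

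Slc3a2, the shared heavy chain (chromosome 19, 8706882 to 8723369 in mm10), was at 198, 189 and 181 CPM in MSL2KO replicates 1, 2 and 3, against 236, 202 and 184 CPM in MSL2WT replicates 1, 2 and 3. The highest library was MSL2WT replicate 1 and the groups overlapped. The log2 fold change was -0.13 ± 0.09 (SE), with an interval from -0.34 to 0.08 and an adjusted p of 0.628, and it was -0.03 without MSL2WT replicate 1 and -0.20 without MSL2WT replicate 3 (adjusted p 0.267). Its light chain partner Slc7a5 (LAT1, chromosome 8, 121881146 to 121907686) was at 234, 238 and 256 CPM in MSL2KO replicates, against 270, 246 and 230 CPM in MSL2WT replicates. MSL2WT libraries included both the highest and the lowest value of this gene. The log2 fold change of Slc7a5 was -0.04 ± 0.08, with an interval from -0.22 to 0.14 and an adjusted p of 0.913. Slc7a6 (y+LAT2, chromosome 8, 106168219 to 106198714) encodes another partner of the heavy chain, which exchanges cationic for neutral amino acids. It was at 105, 110 and 119 CPM in MSL2KO replicates, against 109, 115 and 118 CPM in MSL2WT replicates. Its group means were 111 ± 7.2 CPM in MSL2KO and 114 ± 4.6 CPM in MSL2WT (SD, n = 3 each), with a log2 fold change of -0.03 and an interval from -0.20 to 0.13 (adjusted p 0.911).

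Slc7a11 (xCT, chromosome 3, 50364936 to 50499087), the light chain that imports cystine in exchange for glutamate and feeds glutathione synthesis, had almost no reads. It had 0, 1 and 1 reads in MSL2KO replicates 1, 2 and 3, against 2, 5 and 1 reads in MSL2WT replicates 1, 2 and 3. Pooled over each group these were 2 reads, or 0.0381 CPM (exact Poisson 95% interval 0.00461 to 0.138), in MSL2KO and 8 reads, or 0.170 CPM (0.0736 to 0.336), in MSL2WT, intervals that cover counting error only. The ratio was 0.223 of MSL2KO over MSL2WT, with a 95% counting interval from 0.0231 to 1.12, so no difference was detectable at this depth. The gene did not pass the filter on low counts, and without that filter its adjusted p was 0.692 in edgeR. That fit gave some other genes p-values too small for the spread among libraries. The promoter shown above with 2 motif matches is that of a gene at or near the counting floor of 3 reads in all 6 libraries.

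Slc7a1 (CAT-1, chromosome 5, 148327410 to 148399904), the arginine and lysine carrier that is also the receptor of ecotropic murine leukaemia viruses, was at 146, 169 and 186 CPM in MSL2KO replicates 1, 2 and 3, against 207, 176 and 144 CPM in MSL2WT replicates 1, 2 and 3. Replicate 1 was the lowest MSL2KO library and the highest MSL2WT library, and the reverse held for replicate 3. The means were 167 ± 20 CPM in MSL2KO and 175 ± 31 CPM in MSL2WT, with a log2 fold change of -0.07 ± 0.13, an interval from -0.36 to 0.22 and an adjusted p of 0.882.

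Neither of the neutral amino acid exchangers passed the test. Slc1a5 (ASCT2, chromosome 7, 16781334 to 16798274), a sodium-dependent carrier of glutamine, was at 220, 242 and 265 CPM in MSL2KO replicates 1, 2 and 3, against 249, 250 and 255 CPM in MSL2WT replicates 1, 2 and 3. The MSL2WT libraries lay inside the range of the MSL2KO libraries, with a coefficient of variation of 9.28% in MSL2KO and 1.23% in MSL2WT. Its log2 fold change was -0.05, with an interval from -0.23 to 0.13 and an adjusted p of 0.856. Slc1a4 (ASCT1, chromosome 11, 20302180 to 20332713), which carries alanine, serine and cysteine, was at 65.1, 55.8 and 48.4 CPM in MSL2KO replicates, against 76.7, 57.1 and 50.5 CPM in MSL2WT replicates. The spread within each group, 8.3 CPM in MSL2KO and 14 CPM in MSL2WT (SD, n = 3 each), exceeded the difference of the means, 56.4 CPM in MSL2KO and 61.4 CPM in MSL2WT. The log2 fold change of Slc1a4 was -0.12, with an interval from -0.46 to 0.22 and an adjusted p of 0.817, and it was 0.07 without MSL2WT replicate 1.

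Among the sodium-coupled system A carriers, Slc38a1 (SNAT1, chromosome 15, 96571418 to 96643438) had the smallest p of the 9 tested genes. It was at 182, 210 and 201 CPM in MSL2KO replicates 1, 2 and 3, against 226, 237 and 203 CPM in MSL2WT replicates 1, 2 and 3. MSL2KO replicate 2 lay above MSL2WT replicate 3, and the other libraries were separated by group. The log2 fold change was -0.17 ± 0.09 (SE), with an interval from -0.36 to 0.02, an unadjusted p of 0.0773 and an adjusted p of 0.404 in edgeR. The difference of the means, 198 ± 14 CPM in MSL2KO and 222 ± 17 CPM in MSL2WT (SD, n = 3 each), exceeded the SD of either group. Slc38a2 (SNAT2, chromosome 15, 96687392 to 96699728), the system A carrier whose RNA cells are known to raise when amino acids are scarce, was at 313, 342 and 376 CPM in MSL2KO replicates, against 333, 350 and 299 CPM in MSL2WT replicates. It was the member with a positive log2 fold change, 0.07 ± 0.09, with an interval from -0.13 to 0.27 and an adjusted p of 0.821. That value was 0.0039 without MSL2KO replicate 3, 0.012 without MSL2WT replicate 3 and 0.134 without MSL2KO replicate 1. By the smallest root mean square difference of centred log2 CPM over the 6 libraries, the genes most like Slc38a1 among 9569 were Nbeal2 (0.0273), Gfpt1 (0.0319), the entry enzyme of hexosamine synthesis, and Epm2aip1 (0.0320), beside a median difference of 0.177. This describes a pattern over 6 libraries.

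The reads of 2 genes within a library can be set against each other without any scaling factor, and 3 such pairs were compared after the values had been seen. Slc38a1 made up 36.7%, 38.0% and 34.9% of the reads of the system A pair in MSL2KO replicates 1, 2 and 3, against 40.45%, 40.39% and 40.4% in MSL2WT replicates 1, 2 and 3. The MSL2KO shares all lay below the MSL2WT shares, though neither gene alone separated the groups. How often other gene pairs separate in this way was not computed, and for single genes the share was 20.9% of all tested genes. Exact binomial 95% intervals of single libraries ran from 33.9% to 38.9% in MSL2KO and from 39.3% to 41.5% in MSL2WT, for counting error only. The log2 ratio of Slc38a1 to Slc38a2 reads averaged -0.80 ± 0.10 in MSL2KO and -0.56 ± 0.0019 in MSL2WT (SD, n = 3 each), a difference of -0.24. The MSL2WT shares differed far less than the counting interval of 1 library allows (39.4% to 41.5% in replicate 1). Their SD therefore understates the error of that ratio. A two-sided exact permutation test gave p = 0.1, the smallest value that 3 against 3 libraries allow, and an adjusted p of 0.3 over the 3 pairs. With this number of libraries no pair could have passed 0.05, so the test does not separate a difference from none. The difference ran from -0.28 to -0.19 when each library was left out in turn. For Slc1a4 and Slc1a5 the log2 ratio averaged -2.11 ± 0.35 in MSL2KO and -2.06 ± 0.33 in MSL2WT (exact p = 0.8, adjusted 0.8). For Slc7a5 and Slc3a2 it averaged 0.36 ± 0.13 in MSL2KO and 0.27 ± 0.06 in MSL2WT (exact p = 0.4, adjusted 0.6). These shares depend on transcript lengths as well, so they are compared between libraries and not between genes.

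**Figure D2:**
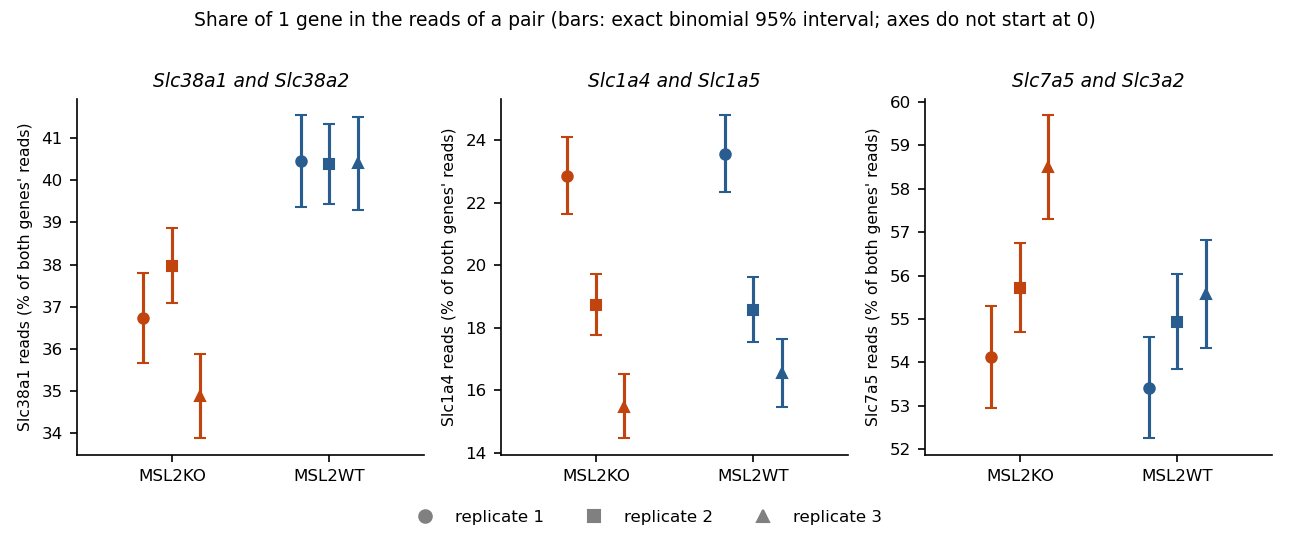
Share of the first-named gene in the summed reads of a pair (%, axes not starting at 0) in each library, with exact binomial 95% intervals. Slc38a1 lies at 34.9% to 38.0% in MSL2KO and at 40.39% to 40.45% in MSL2WT libraries, while for the other pairs the groups overlap.

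Slc6a9 (GLYT1, chromosome 4, 117835258 to 117869305), the sodium- and chloride-coupled glycine carrier, was at 7.09, 7.23 and 7.33 CPM in MSL2KO replicates 1, 2 and 3, against 13.8, 7.78 and 7.30 CPM in MSL2WT replicates 1, 2 and 3. MSL2WT replicate 1 stood above the other 5 libraries, which lay between 7.09 and 7.78 CPM. The log2 fold change of -0.41 ± 0.23, the largest in size of the 9, had an interval from -0.92 to 0.11 and an adjusted p of 0.476. Without MSL2WT replicate 1 it was -0.07, so that this library set the value. Intervals of the other 8 tested genes lay between -0.46 and 0.27.

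**Figure D3:**
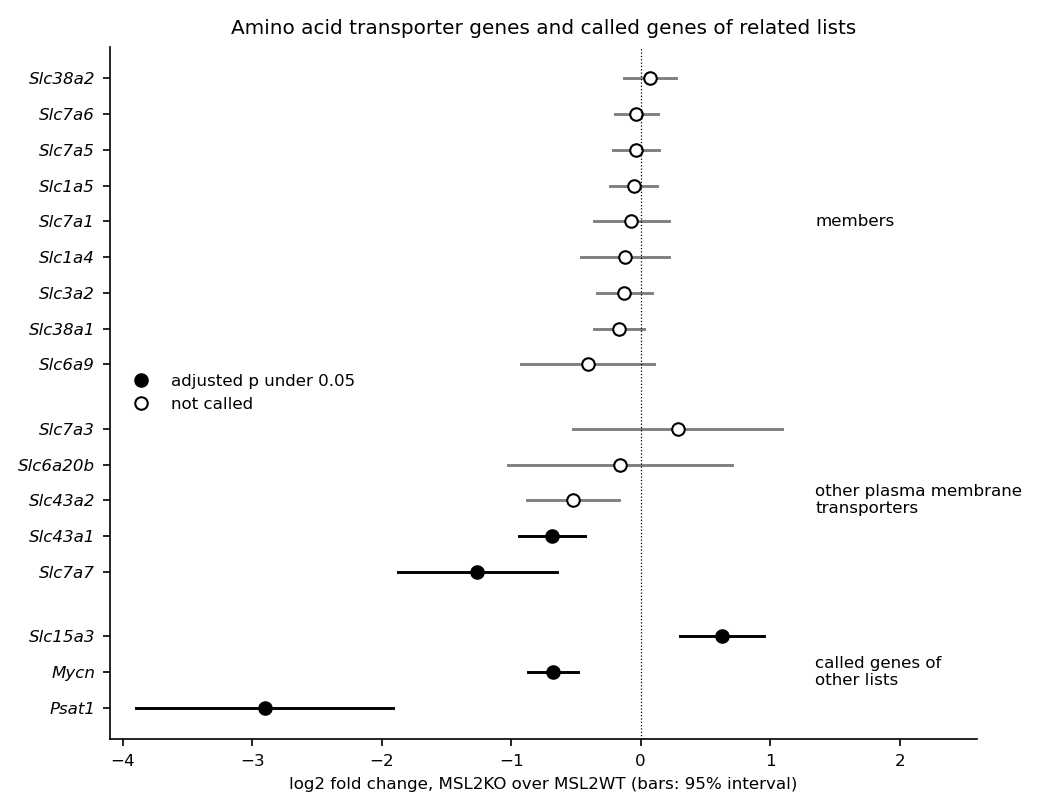
Log2 fold change of MSL2KO over MSL2WT with its 95% interval for the 9 tested members, the 5 tested genes of a list of other plasma membrane transporters, and called genes of related lists. Filled points have an adjusted p under 0.05 in edgeR. All 9 members have open points and intervals that cross 0.

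Variation between libraries of the same group was larger than the group difference for several members. Slc3a2 and Slc1a4 were highest in replicate 1 of both groups, a pattern found in 2 of 9 members and in 14.1% of all tested genes. The same pattern held for 13 of 22 tested genes (59.1%) of a list of amino acid response and ATF4 target genes, a comparison made after the values were seen. Trib3, a pseudokinase induced by amino acid shortage, was at 23.9, 15.96 and 10.1 CPM in MSL2KO replicates 1, 2 and 3, against 43.2, 25.6 and 13.2 CPM in MSL2WT replicates 1, 2 and 3. Asns, the asparagine synthetase, was at 360, 297 and 298 CPM in MSL2KO replicates, against 450, 324 and 334 CPM in MSL2WT replicates. Neither gene was called (adjusted p 0.449 for Trib3 and 0.519 for Asns). Slc7a1, Slc7a5 and Slc38a2 instead had replicate 3 as the highest MSL2KO library and the lowest MSL2WT library. The labels do not say whether a replicate number marks a shared culture or day, and what sets these differences was not tested.

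**Figure D4:**
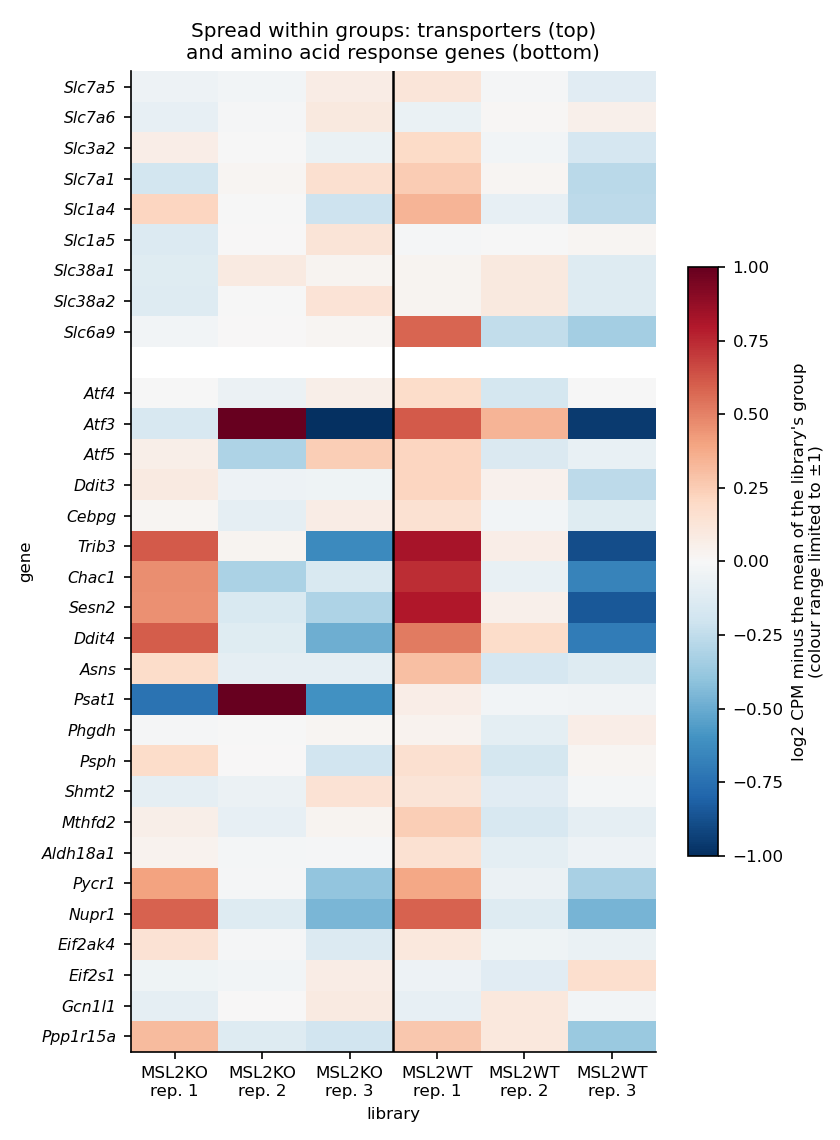
Log2 CPM of each library minus the mean of its group (colour, limited to ±1) for the 9 tested members, above, and 22 tested amino acid response genes, below. Slc3a2, Slc1a4 and 13 of the 22 response genes are highest in replicate 1 of both groups, and Psat1 is high in MSL2KO replicate 2.

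Across the ATF4 list itself, 1 of 22 tested genes was called lower in MSL2KO and 0 higher, or 4.55% beside 4.59% of all tested genes. Of the 22 log2 fold changes 16 were negative and 6 positive, with a median of -0.12. The count called lower was 5 without the filter on low counts and 5 with the replicate number as a block. The fit without the filter gave some genes, Psat1 among them, far smaller p-values and is not comparable with the others. The called gene was Psat1, at 36.4 ± 32 CPM in MSL2KO and 277 ± 11 CPM in MSL2WT (log2 fold change -2.90, adjusted p 0.00445), and the log2 fold change was -3.93 without MSL2KO replicate 2. Atf4 was not called, at 342, 328 and 357 CPM in MSL2KO replicates 1, 2 and 3, against 434, 338 and 382 CPM in MSL2WT replicates 1, 2 and 3 (adjusted p 0.470). Among 13 transcription factors known to act on transporter genes, 1 fell and 0 rose (median -0.01), or 7.69% called beside 4.59% of all tested genes. The called gene was Mycn, a MYC family member, at 99 ± 8.4 CPM in MSL2KO and 159 ± 11 CPM in MSL2WT (log2 fold change -0.68, adjusted p 0.00181). Myc was at 172, 201 and 241 CPM in MSL2KO replicates, against 225, 238 and 211 CPM in MSL2WT replicates (adjusted p 0.673).

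The wider transporter family gave a few calls. Of 33 other plasma membrane amino acid transporters in the files, 5 passed the filter and 11 had 0 reads in all 6 libraries. Of the 5 tested, 2 fell and 0 rose, with a median log2 fold change of -0.52. This is 40% called, of only 5 genes, beside 4.59% of all tested genes. Slc43a1 (LAT3), a carrier of large neutral amino acids that works without the SLC3A2 chain, was at 25.7, 32.8 and 28.8 CPM in MSL2KO replicates 1, 2 and 3, against 45.8, 42.4 and 52.3 CPM in MSL2WT replicates 1, 2 and 3. The groups did not overlap, as in 20.9% of all tested genes. Its log2 fold change of -0.68 had an interval from -0.94 to -0.43 and an adjusted p of 0.00657. Its relative Slc43a2 (LAT4) was at 20.2, 18.8 and 13.6 CPM in MSL2KO replicates, against 26.8, 27.9 and 21.0 CPM in MSL2WT replicates, without overlap (adjusted p 0.107 in edgeR and 0.0478 in DESeq2). Slc7a7 (y+LAT1), another light chain of SLC3A2, fell to 1.15 ± 0.19 CPM in MSL2KO, against 2.78 ± 0.40 CPM in MSL2WT (log2 fold change -1.26, adjusted p 0.0285). This call rested on between 15 and 54 reads per library, and it was lost without MSL2WT replicate 1 or 2 or any of the MSL2KO libraries (adjusted p from 0.0612 to 0.106), and without both libraries numbered 2 (0.200). Slc7a3 (CAT-3), a relative of Slc7a1, was highest in replicate 1 of both groups and not called, at 22.9, 18.9 and 9.11 CPM in MSL2KO replicates and 22.1, 11.6 and 8.43 CPM in MSL2WT replicates.

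Of 12 tested lysosomal and other intracellular transporters, 1 rose and 0 fell (median 0.00), or 8.33% called beside 4.59% of all tested genes. This was Slc15a3, a lysosomal carrier of histidine and small peptides, at 44.1, 34.9 and 29.5 CPM in MSL2KO replicates 1, 2 and 3, against 21.6, 26.3 and 21.96 CPM in MSL2WT replicates 1, 2 and 3 (log2 fold change 0.63, adjusted p 0.0380). Its call was lost with library totals only (0.0538), when genes below a mean log2 CPM of 2 were dropped (0.0578), and without MSL2KO replicate 1 or 2 or MSL2WT replicate 1 or 3 (from 0.0665 to 0.126) or both libraries numbered 2 (0.0789). Of 11 tested mitochondrial amino acid carriers, 0 passed in edgeR, DESeq2 or limma-voom, and 0 had an unadjusted edgeR p under 0.05 (median 0.02). Of 15 myeloid markers 6 had 0 reads throughout, Lyz2 and Elane included, and their summed level was 49.7 to 56.6 CPM in MSL2KO libraries, against 18.2 to 34.5 CPM in MSL2WT libraries. Most of it was Mrc1, the mannose receptor, which rose to 49.3 ± 2.7 CPM in MSL2KO, against 19.5 ± 8.2 CPM in MSL2WT (adjusted p 0.0068). T and NK cell markers summed to 8.71 to 17.2 CPM in MSL2KO libraries, against 15.7 to 25.4 CPM in MSL2WT libraries, with 5 of 22 at 0 reads (Thy1 and Trbc1 among them), Zap70 with the most reads and Lat called lower (1.85 ± 0.75 CPM in MSL2KO and 5.98 ± 1.8 CPM in MSL2WT, adjusted p 0.015). Erythroid and megakaryocyte markers summed to 147 to 206 CPM in MSL2KO libraries, against 162 to 185 CPM in MSL2WT libraries, mostly Hbb-bt, with 5 of 16 at 0 reads (Pf4 among them), and Gata1 was called lower (0.24 ± 0.15 CPM in MSL2KO and 1.85 ± 0.31 CPM in MSL2WT, adjusted p 0.00458). Stromal and endothelial markers summed to 115 to 131 CPM in MSL2KO libraries, against 103 to 123 CPM in MSL2WT libraries, mostly Pecam1, with 6 of 12 at 0 reads (Pdgfra and Kdr among them). Whether any of these reads came from other cell types was not tested, nor was a part of such cells in the transporter values.

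**Figure D5:**
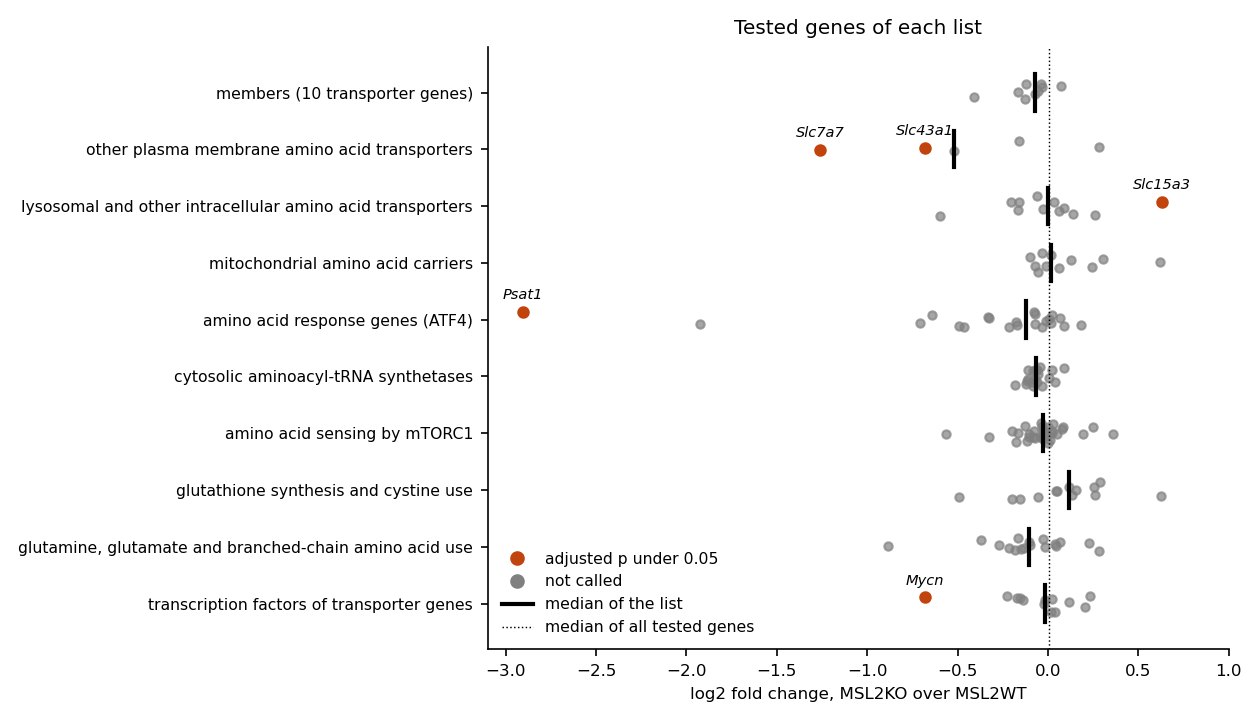
Log2 fold change of MSL2KO over MSL2WT for each tested gene of the members and of 9 related lists, with the median of each list (bar) and of all tested genes (dotted line). The members lie between -0.41 and 0.07 with 0 called, and the called genes are Slc7a7, Slc43a1, Slc15a3, Psat1 and Mycn.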

How the data were processed

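RNA was measured in 6 libraries, 3 MSL2KO and 3 MSL2WT, grouped and numbered by their titles. Per the labels' protocols, total RNA was depleted of ribosomal RNA. The deposited files hold 1 raw count per gene and library, not normalised, per the file headers. Tools named by the submitters' processing notes, without saying what each did, include STAR 2.5.3a and featureCounts 2.0.0, and the build named is mm10. Strandedness, gene annotation and treatment of multimapping reads are not given in the sources used, so reads of overlapping genes or close paralogs may be shared. The series' 9 ChIP and input samples were not used here.

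Of 55335 identifiers, 54587 matched a symbol, and a symbol with several identifiers was taken from the one with the most reads. Positions are whole gene spans of RefSeq GRCm38.p6. Genes were filtered with filterByExpr, scaled by TMM and compared with the quasi-likelihood test of edgeR 4.0.16 in R 4.3.3, without covariate, over 13077 genes with Benjamini-Hochberg adjustment. SEs and 95% intervals come from the fold change and its F statistic. DESeq2 1.42.0, limma-voom (limma 3.58.1), RLE scaling, library totals only, other filters on low counts, a block for replicate number, and fits lacking 1 library or both libraries numbered 2 were alternatives. Library pairs within a group differed by more than sampling noise (chi-square per degree of freedom between 7.4 and 19.5). Levels per transcript length were not computed, since no transcript lengths were used here, and levels are not ranked between genes. Besides the members, the genes named are Msl2, Blnk, up to 2 called genes per direction and list, the called and the most read genes of marker lists, and the 3 genes most like the member with the smallest p. Blk, Trib3, Asns, Atf4, Myc, Slc43a2, Slc7a3 and the markers at 0 were named after their values were seen. The members and lists were chosen with earlier results of these data known. The scripts were tested on simulated data.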

Additional observations from a re-analysis of the deposited data

How the results depend on the processing

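Over 14 alternatives, 0 of 126 recomputed fold changes of members passed the threshold (lowest adjusted p 0.188), and 120 kept their sign. The 6 that turned did so when 1 library was left out, to 0.0676 for Slc1a4, 0.0599 for Slc7a1 and 0.0260 for Slc7a5 without MSL2WT replicate 1, and to 0.0105 for Slc1a5, 0.0141 for Slc7a1 and 0.00732 for Slc7a6 without MSL2KO replicate 1. Leaving out each library in turn, log2 fold changes ran from -0.240 to 0.0676 (Slc1a4), -0.120 to 0.0105 (Slc1a5), -0.195 to 0.0599 (Slc7a1), -0.0881 to 0.0260 (Slc7a5), -0.0813 to 0.00732 (Slc7a6), -0.204 to -0.0256 (Slc3a2), -0.227 to -0.111 (Slc38a1), 0.00387 to 0.134 (Slc38a2) and -0.567 to -0.0659 (Slc6a9), and the members' median from -0.1945 to -0.0105.

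Over all tested genes, 482 were higher and 721 lower without a filter on low counts, 232 lower when genes below a mean log2 CPM of 2 were dropped, and 224 lower without both libraries numbered 2. In the fit without the filter, edgeR p-values of some genes fell steeply with little change in effect. For Psat1 the unadjusted p went from 6.4e-05 to 1.9e-192, with log2 fold changes of -2.90 and -2.91. Such a p cannot reflect the spread among 3 libraries, so counts from this fit are not comparable with the others. Leaving out each library gave 138 to 227 higher and 242 to 316 lower, with 138 and 242 without MSL2WT replicate 1 and 147 higher without MSL2KO replicate 1. In the ATF4 list 5 genes were lower without the filter and 1 to 2 when a library was left out. Without the filter 1 gene of amino acid sensing and 1 of glutathione synthesis were higher, and 0 to 1 of the latter when a library was left out. The higher lysosomal carrier became 0 with library totals only, with the stricter filter, and without both libraries numbered 2, and 0 to 1 when a library was left out. The other plasma membrane carriers had 4 lower genes without the filter, 1 with the stricter filter, 1 without both libraries numbered 2, and 1 to 2 when a library was left out. The cause of these changes was not tested, and some of these fits also held fewer or more genes or fewer samples.

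With the replicate number as a block, 381 genes were higher, 565 lower, 5 of the ATF4 list lower and 0 members called (Slc38a1 adjusted p 0.22, Slc3a2 0.336). Trib3 and Slc43a2 passed with the block (0.0106 and 0.0125). Same-numbered libraries correlated at 0.03, 0.21 and 0.40 in their deviations from group means over 13077 genes. Differently numbered libraries ran from -0.40 to 0.27, all negative except MSL2KO replicate 2 with MSL2WT replicate 1 (0.27). Deviations sum to 0 over the 3 libraries of a group, so these correlations are not independent, and positive values bring negative ones with them. The main fit had no block because the labels state no pairing. Whether the numbers mark a shared culture or day was not tested.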

Other observations

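Lists on the use of amino acids after uptake are given beside the share of all tested genes, 4.59% called by edgeR and 15.4% with an unadjusted p under 0.05. At the share called, 0 calls are near the background in lists of this size. Of 20 cytosolic aminoacyl-tRNA synthetases, which load amino acids onto tRNA, 0 passed in edgeR or DESeq2, and the edgeR p before adjustment was under 0.05 for 1. Their log2 fold changes of MSL2KO over MSL2WT ran from -0.18 to 0.09, with a median of -0.07 and 16 of 20 negative. Of 33 tested genes of amino acid sensing by mTORC1, the kinase complex that couples amino acid supply to growth, 0 passed in edgeR or DESeq2 (median -0.03). The edgeR p before adjustment was under 0.05 for 1 of the 33, a smaller share than the 15.4% of all tested genes. Of 13 tested genes of glutathione synthesis and cystine use, 0 passed in edgeR or DESeq2, and the edgeR p before adjustment was under 0.05 for 2 (median 0.12). Gclc, the catalytic subunit of the first enzyme of glutathione synthesis, was at 122, 134 and 146 CPM in MSL2KO replicates 1, 2 and 3, against 106, 121 and 109 CPM in MSL2WT replicates 1, 2 and 3 (adjusted p 0.167), in cells where Slc7a11 was near the counting floor. Of 17 genes of glutamine, glutamate and branched-chain amino acid use, 0 passed in edgeR or DESeq2, and the edgeR p before adjustment was under 0.05 for 2 (median -0.11). Gclc was named after its values were seen.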
